A study of Mus musculus with 6 samples.

Results

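The chemokine system of neonatal islet cells was described across 57 genes, 35 chemokine ligands, 18 chemokine receptors and 4 atypical chemokine receptors, of 45616 genes and transcripts on the arrays, 22908 of which carry a gene symbol. The genes were chosen by name: every probe with a RefSeq accession whose mouse symbol is made of Ccl, Cxcl, Cx3cl, Xcl, Ccr, Cxcr, Cx3cr, Xcr or Ackr and a number. *Ccl21a* and *Ccl27a* were kept with their letter, and 73 probes cover the 57 genes. The RefSeq genes *Ccl21b*, *Ccl21c*, *Ccl21d*, *Ccl27b* and *Cxcl11* fit the names but have no probe matched here. A gene was called measured when its probe was well above background, as judged by the scanner software, on all 3 arrays of at least 1 population. By that rule 35 genes were measured, 32 of them in both populations and 3, *Ackr3* and *Ccl3* among them, on all 3 arrays of the *Wnt4*low cells alone. Another 10 genes were above background on some arrays, and 12 on none.

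All mice carried *Wnt4eGFPCre* and the reporter *mTmG*, in which Cre turns a cell and its descendants from membrane red to membrane green fluorescence (mGFP), and came from crosses to C57BL/6J. Islets were taken on postnatal day 1 (P1) and dissociated, and FACS separated mGFP+ cells, called *Wnt4*hi, from mGFP- cells, called *Wnt4*low. The green mark records past *Wnt4* expression, with an onset between late gestation and P1, and it need not equal the present *Wnt4* level. The sort was on mGFP with no gate on a cell type given in the sources used here, so each population could hold several cell types. A cell of any type without past *Wnt4* expression would carry no mGFP and fall in *Wnt4*low. Each of the 6 arrays received 1 pool of islets from 3 or 4 pups, and the replicates are numbered 2, 3 and 4 for *Wnt4*hi and 1, 3 and 4 for *Wnt4*low; values are given in that order. Between 70.5% and 79.5% of 59305 spots were well above background on each array, 0 were saturated, and the 6 arrays lie on 1 slide. Values are normalized log2 intensities of 1 probe per gene, the brightest, and differences are *Wnt4*hi minus *Wnt4*low on the log2 scale with the standard error (SE) from limma. Intensities of different probes are not comparable with each other, so no gene's level was set against that of another gene.

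Chemokines are small secreted proteins that steer the migration of leukocytes and of some other cells along gradients, and they are grouped into CXC, CC, CX3C and XC ligands by the spacing of their first cysteines. They signal through receptors coupled to inhibitory G proteins, whereas atypical receptors bind chemokines and remove them or carry them across cells without coupling to G proteins. Chemokines are held on heparan sulphate chains of cell surfaces and matrix. In the pancreas, resident macrophages lie next to the capillaries of the islets, and CXCL12, made by stromal and endothelial cells, acts on CXCR4 during the growth of the organ and its vessels.

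Chemokine and receptor transcripts differed between the populations in 1 direction. Of the 57 genes, 11 (19.3%) were lower in *Wnt4*hi cells at an unadjusted p under 0.05, where 5.53% of all features were, and 0 were higher, where 5.06% of all features were (limma). For 12 genes every *Wnt4*hi array lay below every *Wnt4*low array, against 6.44% of all features, and for 0 genes above, against 9.63% of all features. Of the 11 genes 9 were measured, and of the 12 genes also 9: *Ccl12* and *Ccr2*, in both counts, were above background on some *Wnt4*low arrays only, and *Ccr1* on no array. After Benjamini-Hochberg adjustment over all features, *Ccl3* and *Ackr3* were lower in *Wnt4*hi cells, 2 of 57 genes, where 0.441% of all features passed in either direction. The 4 largest fitted differences were those of *Ackr3*, *Ccl3*, *Cxcr4* and *Cxcl12*. *Cxcl12* and *Cxcr4*, measured on every array, were 6.23 and 6.40 times as bright in *Wnt4*low cells with their brightest probes, while their second probes differed by -0.99 and -1.86 on the log2 scale, and *Ccl3*, not above background in *Wnt4*hi cells, at least 5.06 times. *Ackr3* was above background on 1 *Wnt4*hi array, so its fitted difference includes background readings. Most of the other genes lay close to 0: the median difference of the 57 genes was -0.14, and that of all features 0.07. The median of the 35 measured genes was -0.34, but a gene that is high in 1 population can enter that set through its high arrays, so this value is a description. It was -0.066 without *Wnt4*low replicate 1 and -0.15 when a fixed replicate block was fitted. When any 1 of the 6 arrays was left out, 0 of the 57 genes passed the adjusted threshold, and of all features 0 to 9 did, where 201 passed with all arrays, whereas between 8 and 14 genes were then past the unadjusted threshold in the same direction and 0 or 1 in the other.

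**Figure D1:**
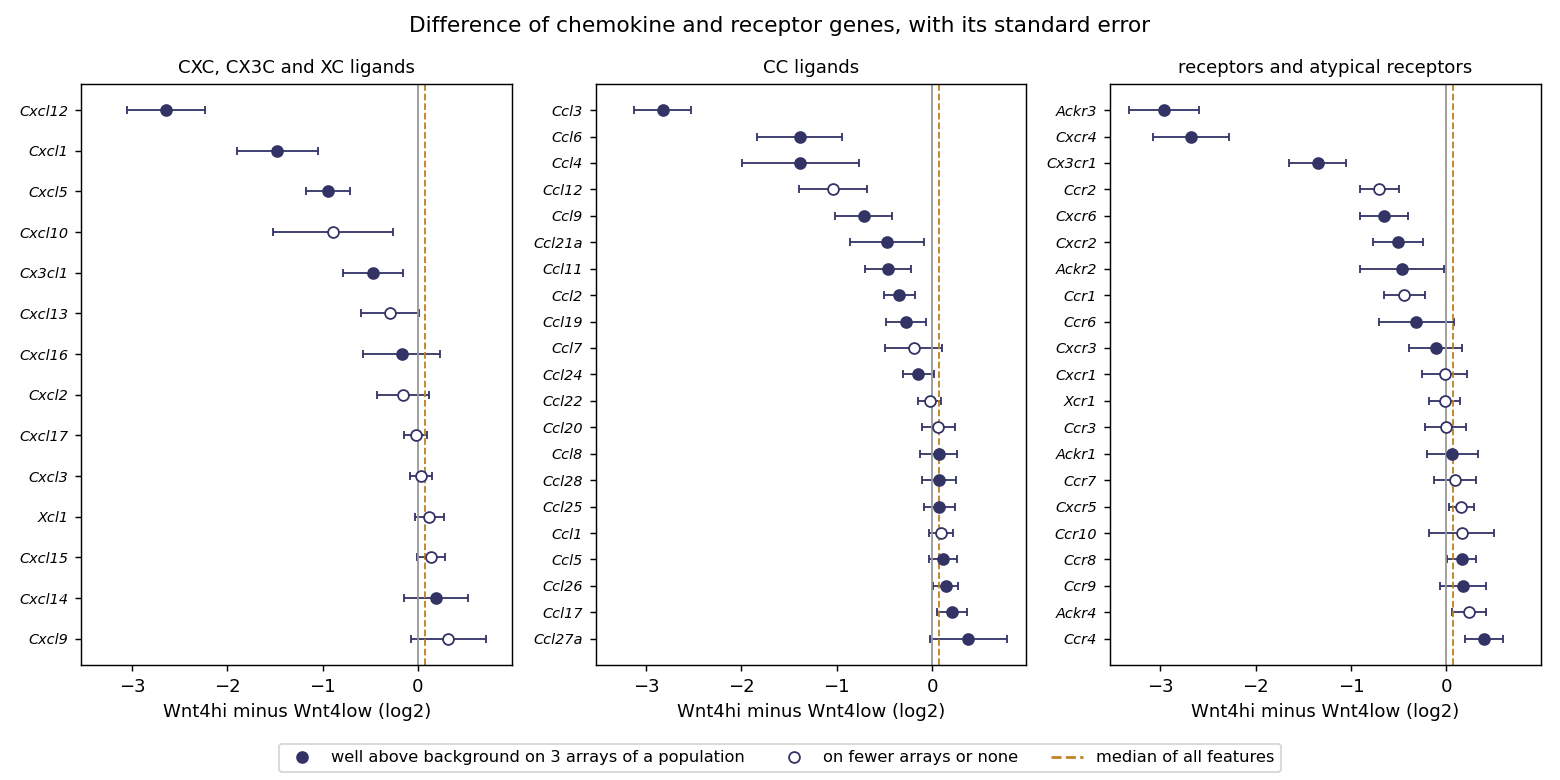
Difference of the chemokine and receptor genes, *Wnt4*hi minus *Wnt4*low on the log2 scale (x axis), with its standard error as a bar, ordered within ligands and receptors. Filled points are measured genes, open points are genes well above background on fewer arrays or none, and the dashed line is the median of all features at 0.07. *Ackr3*, *Ccl3*, *Cxcr4* and *Cxcl12* lie below -2.5, and the other genes lie between -1.47 and 0.40.

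Markers of several cell types moved with these differences, and their part in them was not tested. All 14 endothelial markers were below 0 with a median of -3.19, 12 of them at an unadjusted p under 0.05, and their summed normalized intensity was 6320 to 9110 in *Wnt4*hi and 37300 to 81700 in *Wnt4*low cells. Such sums are led by the genes with the brightest probes. *Tek* and *Tie1*, receptors of the endothelium, were not well above background on any *Wnt4*hi array. Of 13 macrophage markers, 6 were lower in *Wnt4*hi cells and 0 higher at the same threshold, with a median of -0.58 and sums of 11300 to 18300 against 22100 to 25300. The leukocyte gene *Ptprc* was above background on 1 *Wnt4*hi array and the macrophage gene *Mrc1* on 0, whereas the macrophage receptor *Csf1r* differed by 0.07 (SE 0.17). Of 7 neutrophil markers on the array, 4 were lower, with sums of 2700 to 4470 against 7430 to 8850, and *S100a8* was above background on 0 *Wnt4*hi arrays. Of 9 lymphocyte markers, 0 passed in either direction (limma, unadjusted p under 0.05), with a median of 0.06 and sums that overlapped, 5880 to 7430 against 5000 to 5900. Of 7 mesenchymal markers 5 were lower, with sums of 13400 to 42800 against 47900 to 57000, and of 8 pericyte and smooth muscle markers 5 were lower. Of 9 beta cell markers 5 were higher in *Wnt4*hi cells and 0 lower, with a median of 0.97. *Wnt4*hi replicate 2 held the largest sums of its population for endothelial, macrophage, neutrophil, lymphocyte, mesenchymal, and pericyte and smooth muscle markers. It did not hold the largest for beta cell or other endocrine markers. In such sorted bulk samples, fewer cells of a type and less RNA per cell cannot be told apart.

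The bases upstream of the start of 6 measured genes are shown, those with the smallest p values that have a window in the RefSeq promoter table of assembly GRCm38.p6, to show the sequence beside the genes whose values are described most closely. Each run holds the 250 bases before the annotated start, 5′ to 3′ on the strand of the gene, with matches to searched motifs in capitals. The letters searched on both strands were TATAAA (the TATA box), TGANTCA (bound by AP-1 factors), ACGTG (the core of hypoxia response elements) and the NF-κB consensus.
Ccl3 (chr11:83649379-83649628, minus strand): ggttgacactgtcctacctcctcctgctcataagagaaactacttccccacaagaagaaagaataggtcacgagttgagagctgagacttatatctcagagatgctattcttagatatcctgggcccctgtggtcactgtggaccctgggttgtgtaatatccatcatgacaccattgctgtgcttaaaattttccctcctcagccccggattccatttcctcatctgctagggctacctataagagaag
Ackr3 (chr1:90203730-90203979, plus strand): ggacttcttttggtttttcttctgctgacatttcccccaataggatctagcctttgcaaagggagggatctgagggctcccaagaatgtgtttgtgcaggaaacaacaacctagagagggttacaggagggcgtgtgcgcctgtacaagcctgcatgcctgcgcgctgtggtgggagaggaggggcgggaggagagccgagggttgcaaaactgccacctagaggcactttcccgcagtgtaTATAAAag
Cxcr4 (chr1:128592300-128592549, minus strand): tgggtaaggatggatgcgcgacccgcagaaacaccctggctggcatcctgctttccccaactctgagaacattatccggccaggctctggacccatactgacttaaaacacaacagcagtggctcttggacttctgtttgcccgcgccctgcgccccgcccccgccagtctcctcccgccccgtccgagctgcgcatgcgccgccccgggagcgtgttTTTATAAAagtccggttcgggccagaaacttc
Cxcl12 (chr6:117168285-117168534, plus strand): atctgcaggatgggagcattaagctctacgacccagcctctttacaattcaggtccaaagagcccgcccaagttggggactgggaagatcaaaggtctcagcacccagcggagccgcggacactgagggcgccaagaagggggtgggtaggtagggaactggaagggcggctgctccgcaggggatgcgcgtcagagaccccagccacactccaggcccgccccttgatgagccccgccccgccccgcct
Cx3cr1 (chr9:120068297-120068546, minus strand): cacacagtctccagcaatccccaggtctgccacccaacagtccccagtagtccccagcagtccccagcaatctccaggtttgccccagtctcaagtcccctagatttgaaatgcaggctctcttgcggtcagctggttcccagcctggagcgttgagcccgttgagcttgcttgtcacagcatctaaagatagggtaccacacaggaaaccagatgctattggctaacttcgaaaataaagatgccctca
Cxcl1 (chr5:90890995-90891244, plus strand): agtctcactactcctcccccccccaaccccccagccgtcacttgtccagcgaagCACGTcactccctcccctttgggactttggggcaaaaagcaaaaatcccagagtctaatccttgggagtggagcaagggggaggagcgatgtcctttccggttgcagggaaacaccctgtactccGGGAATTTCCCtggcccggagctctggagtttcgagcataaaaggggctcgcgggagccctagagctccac
The table held a window for 43 of the 57 genes. TATAAA lay 8 bases upstream of the start of *Ackr3* and 30 bases upstream of that of *Cxcr4*, where both strands hold it in overlapping letters. In *Cxcl1*, an inflammatory chemokine of neutrophils, the NF-κB consensus began 71 bases upstream of the start on 1 strand and overlapped a match on the other, and ACGTG lay on the opposite strand 196 bases upstream. The windows of *Ccl3*, *Cxcl12* and *Cx3cr1* held none of these letters. TATAAA was found for 13 of the 43 genes and in 12.4% of all 32851 windows of the same length, the NF-κB consensus for 11 genes and in 7.25% of windows, ACGTG for 6 genes and in 16.6%, and TGANTCA for 5 genes and in 6.75%. The 11 genes with the NF-κB consensus include *Cxcl1*, *Cxcl2*, *Cxcl3* and *Cxcl10*, and some genes have more than 1 window, 47 in all. A match is a description of the letters and not a binding site. The share of G and C was 64.4% upstream of *Cxcl12* and 61.2% upstream of *Cxcr4*, with 14 and 19 CG dinucleotides, against 46.8% and 2 upstream of *Ccl3*.

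Among the CXC ligands, *Cxcl12*, *Cxcl1* and *Cxcl5* were lower in *Wnt4*hi cells. *Cxcl12* (SDF-1), the ligand of CXCR4 and ACKR3, measured 11.47, 9.86 and 10.60 in *Wnt4*hi and 13.19, 13.10 and 13.57 in *Wnt4*low cells. The *Wnt4*low arrays lay close together and above every *Wnt4*hi array, among which replicate 2 was the highest. The difference was -2.64 (SE 0.41, unadjusted p = 0.000592, adjusted p = 0.0710, limma), and between -3.05 and -2.25 when 1 array was left out, without *Wnt4*hi replicates 2 and 3 respectively. A second, dimmer probe for another transcript accession of *Cxcl12*, above background on 2 of 3 *Wnt4*hi arrays, differed by -0.99, and the mean of both probes by -1.81, so the size of the difference rests on the probe.

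*Cxcl1* (KC), which draws neutrophils through CXCR2, measured 11.46, 9.87 and 10.55 in *Wnt4*hi and 11.87, 11.92 and 12.52 in *Wnt4*low cells. *Wnt4*hi replicate 2 came closest to the *Wnt4*low arrays, and the populations did not overlap. The difference was -1.47 (SE 0.42, unadjusted p = 0.0126, adjusted p = 0.273, limma), -1.89 without that array and -1.10 without *Wnt4*hi replicate 3. *Cxcl5* (LIX), another ligand of CXCR2, measured 7.58, 7.75 and 7.92 in *Wnt4*hi and 8.55, 8.39 and 9.15 in *Wnt4*low cells. Its populations were apart, and its *Wnt4*hi arrays lay closer together than those of *Cxcl1*, with a difference of -0.94 (SE 0.23, unadjusted p = 0.00617, adjusted p = 0.201, limma).

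*Cxcl14* and *Cxcl16* did not pass. *Cxcl14*, an epithelial chemokine without a settled receptor, differed by 0.19 (SE 0.34), and its second probe by -0.16. *Cxcl16*, a membrane-bound ligand of CXCR6, differed by -0.17 (SE 0.40) with the brightest probe and by -0.99 with the other, so its 2 probes disagree in size. *Cxcl2* and the interferon-induced *Cxcl10* were above background on some arrays, and *Cxcl3*, *Cxcl9*, *Cxcl13*, *Cxcl15* and *Cxcl17* on none.

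Among the CC ligands, *Ccl3* and *Ccl6* were lower in *Wnt4*hi cells. *Ccl3* (MIP-1α), made by activated macrophages and acting on CCR1 among other receptors, measured 9.41, 9.38 and 10.22 in *Wnt4*low cells and was not well above background on any *Wnt4*hi array, where its probe read 6.47, 6.84 and 7.22. No *Wnt4*hi array came near the *Wnt4*low arrays. The bound was a level at least 5.06-fold lower than in *Wnt4*low cells, set against the lowest signal well above background on each array, and *Ccl3* passed after adjustment (unadjusted p = 7.47e-05, adjusted p = 0.0366, limma). Of all features, 0.34% were above background on 3 *Wnt4*low and 0 *Wnt4*hi arrays.

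*Ccl6* (C10), a CC chemokine of myeloid cells, measured 9.11, 7.69 and 8.32 in *Wnt4*hi and 9.67, 9.22 and 10.39 in *Wnt4*low cells. *Wnt4*hi replicate 2 nearly reached *Wnt4*low replicate 3, yet the populations stayed apart. The difference was -1.39 (SE 0.45, unadjusted p = 0.0202, adjusted p = 0.333, limma) and -1.76 without *Wnt4*hi replicate 2. It lost the unadjusted threshold without *Wnt4*hi replicate 3 (-1.04), *Wnt4*hi replicate 4 (-1.36) or *Wnt4*low replicate 4 (-1.07).

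*Ccl2* (MCP-1), the main monocyte attractant, measured 9.80, 9.63 and 9.92 in *Wnt4*hi and 10.36, 10.04 and 9.98 in *Wnt4*low cells. Its arrays were apart by a narrow margin and its difference of -0.34 (SE 0.16, unadjusted p = 0.0785, adjusted p = 0.552, limma) did not pass. *Ccl4* (MIP-1β), a chemokine of activated macrophages and lymphocytes, had a difference close to that of *Ccl6* but a wider spread: it measured 9.90, 7.84 and 8.35 against 9.81, 9.51 and 10.91, and *Wnt4*hi replicate 2 lay above 2 of the 3 *Wnt4*low arrays. The difference of -1.38 (SE 0.62) did not pass (unadjusted p = 0.0652, adjusted p = 0.517, limma), and its second probe differed by -1.33.

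The other measured CC ligands did not pass. *Ccl9*, a ligand of CCR1, differed by -0.72 (SE 0.30). The eosinophil attractants *Ccl11* (eotaxin) and *Ccl24* differed by -0.46 (SE 0.24) and -0.14 (SE 0.16). The ligands of CCR7 that guide dendritic cells and lymphocytes, *Ccl19* and *Ccl21a*, differed by -0.27 (SE 0.21) and -0.47 (SE 0.38). *Ccl21a* has near-identical copies (*Ccl21b*, *Ccl21c* and *Ccl21d*) and *Ccl27a* has *Ccl27b*, so their probes may read several genes.

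Several CC ligands were above background in both populations with differences near 0. *Ccl5* (RANTES) ranged from 9.97 to 10.11 in *Wnt4*hi and from 9.72 to 10.06 in *Wnt4*low cells, a difference of 0.11 (SE 0.15). *Ccl25* (TECK), the ligand of CCR9, differed by 0.08 (SE 0.16), *Ccl28*, a mucosal ligand of CCR10, by 0.08 (SE 0.18), and *Ccl8* by 0.07 (SE 0.19). The other probes of *Ccl25* were above background on few arrays or none. *Ccl26* differed by 0.14 (SE 0.13) and *Ccl17*, a ligand of CCR4, by 0.21 (SE 0.16). *Ccl27a*, a skin chemokine that binds CCR10, differed by 0.38 (SE 0.40) with its brightest probe and by -0.39 and -0.37 with the other probes, so its direction depends on the probe. *Ccl7* and *Ccl12* were above background on some arrays, and *Ccl1*, *Ccl20* and *Ccl22* on none. *Ccl12*, a ligand of CCR2, was above background on 2 *Wnt4*low and 0 *Wnt4*hi arrays, and no fold is given for it (adjusted p = 0.363, limma).

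*Cx3cl1* (fractalkine), which is anchored to the membrane of endothelial and epithelial cells, differed by -0.47 (SE 0.32) and did not pass. *Xcl1* was above background on no array.

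Among the receptors other than the atypical ones, *Cxcr4* had the largest difference. *Cxcr4*, the receptor of CXCL12 on leukocytes, endothelial tip cells and progenitors, measured 9.18, 9.61 and 10.46 in *Wnt4*hi and 11.93, 12.44 and 12.93 in *Wnt4*low cells. Every *Wnt4*low array lay well above the highest *Wnt4*hi array. The difference was -2.68 (SE 0.40, unadjusted p = 0.000475, adjusted p = 0.0684, limma), and the second probe of the gene differed by -1.86.

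*Cx3cr1*, the fractalkine receptor of monocytes and tissue macrophages, measured 11.03, 10.13 and 10.46 in *Wnt4*hi and 12.22, 11.46 and 11.98 in *Wnt4*low cells. The populations were apart, and *Wnt4*hi replicate 2 was again the highest of its population. The difference was -1.35 (SE 0.30, unadjusted p = 0.00389, adjusted p = 0.162, limma), -1.59 without that array, -1.14 without *Wnt4*hi replicate 3 and -0.83 with the second probe. That probe was well above background on 2 of 3 *Wnt4*hi arrays. *Cxcr6*, the receptor of CXCL16 on T cell subsets and natural killer cells, measured 9.36, 8.65 and 9.0 against 9.28, 9.89 and 9.80. *Wnt4*low replicate 1 lay below *Wnt4*hi replicate 2, so the populations overlapped. A second *Cxcr6* probe, above background on 1 *Wnt4*hi array, differed by -0.52. The difference of -0.65 (SE 0.25, unadjusted p = 0.0414, adjusted p = 0.442, limma) lost the unadjusted threshold without *Wnt4*hi replicate 3 (-0.47), *Wnt4*hi replicate 4 (-0.65), *Wnt4*low replicate 3 (-0.54) or *Wnt4*low replicate 4 (-0.58).

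Of the other measured receptors, *Cxcr2*, the neutrophil receptor of *Cxcl1* and *Cxcl5*, differed by -0.51 (SE 0.26). *Ccr6* differed by -0.31 (SE 0.39) and *Cxcr3*, the receptor of interferon-induced chemokines, by -0.11 (SE 0.28). The lymphocyte receptors *Ccr4*, *Ccr8* and *Ccr9* differed by 0.40 (SE 0.20), 0.16 (SE 0.15) and 0.18 (SE 0.25). None of these other measured receptors passed. A second *Ccr4* probe was above background on no array. *Ccr2*, the monocyte receptor of *Ccl2*, was above background on 1 *Wnt4*low and 0 *Wnt4*hi arrays, and no fold is given for it (adjusted p = 0.271, limma). *Ccr7*, *Ccr10*, *Cxcr1* and *Xcr1* were above background on some arrays, and *Ccr1*, *Ccr3* and *Cxcr5* on none.

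Among the atypical receptors, *Ackr3* (CXCR7), which binds and removes CXCL12, passed after adjustment. It measured 10.77, 9.38 and 10.03 in *Wnt4*low cells and 6.78, 7.26 and 7.27 in *Wnt4*hi cells, on 1 array of which it was well above background. The populations were far apart, and the *Wnt4*low arrays spread more widely than the *Wnt4*hi arrays. The fitted difference was -2.96 (SE 0.37, unadjusted p = 0.000174, adjusted p = 0.0473, limma). Since it includes 2 *Wnt4*hi arrays not well above background, no fold is given. *Ackr2*, a scavenger of inflammatory CC chemokines, differed by -0.46 (SE 0.44), and its second probe by -0.40. *Ackr1*, which carries chemokines on erythrocytes and venules, differed by 0.06 (SE 0.27). *Ackr4* was above background on some arrays.

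**Figure D2:**
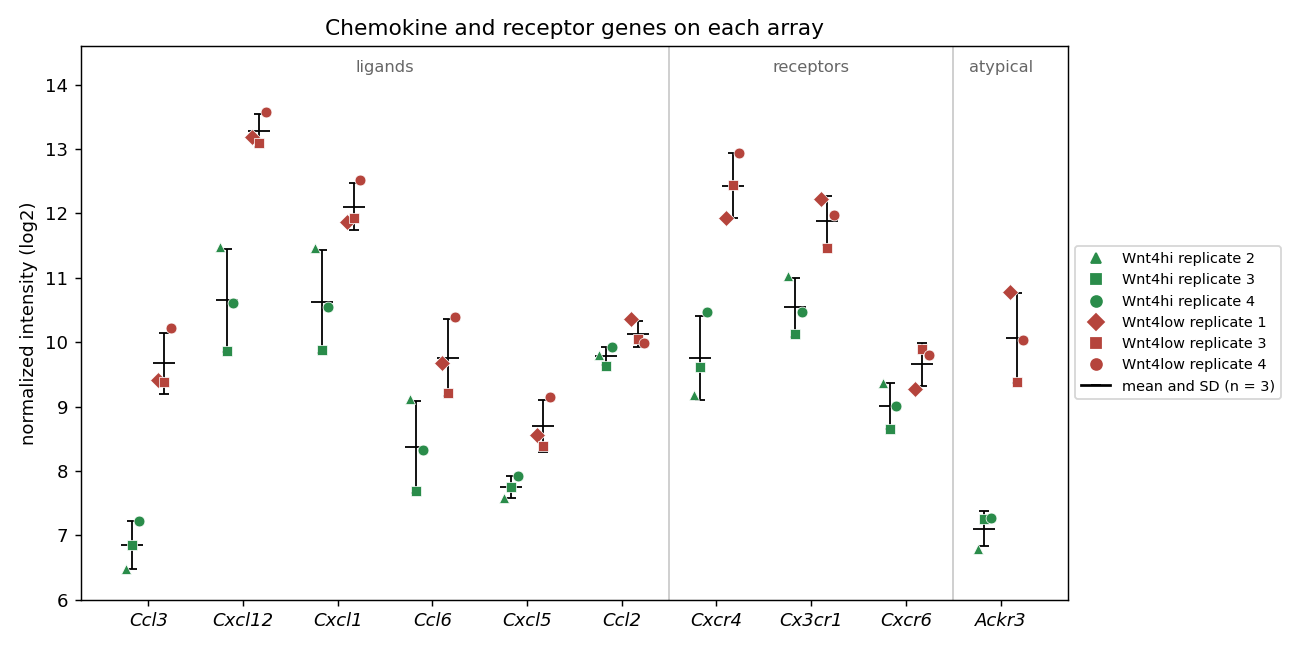
Normalized log2 intensity (y axis) of the measured chemokine and receptor genes that passed an unadjusted p of 0.05 or whose arrays did not overlap, 1 point per array, with the mean and SD of 3 arrays in black. *Wnt4*hi arrays (green) lie below *Wnt4*low arrays (red) for each gene except *Cxcr6*, and *Wnt4*hi replicate 2 (triangles) is the highest of its population for *Cxcl12*, *Cxcl1*, *Ccl6*, *Cx3cr1* and *Cxcr6* and the lowest for *Ccl3*, *Cxcl5*, *Cxcr4* and *Ackr3*.

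Ligands were set beside the receptors they are known to bind, in 38 pairs of which 37 have both genes on the array and 14 have both measured. In 3 pairs both genes passed the unadjusted threshold, *Cxcl12* with *Cxcr4*, *Cxcl12* with *Ackr3*, and *Ccl12* with *Ccr2*, and neither gene of the last pair was measured. *Cxcl12* and both its receptors thus all passed, with fitted differences of -2.64, -2.68 and -2.96, the last including arrays below background. In 9 pairs 1 gene passed. Several pairs share a gene, *Cxcl12* among them, so these counts are not independent, and 19.3% of the 57 genes passed on their own. For fractalkine the receptor passed (-1.35) and the ligand did not (-0.47), and for CXCR6 the receptor passed (-0.65) and *Cxcl16* did not (-0.17). For CXCR2 it was the other way, with *Cxcl1* (-1.47) and *Cxcl5* (-0.94) past the threshold and the receptor at -0.51. *Ccl25* with *Ccr9*, *Ccl17* with *Ccr4* and *Ccl8* with *Ccr8* differed by 0.07 to 0.40, and none of these 6 genes passed.

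Many chemokine genes lie in clusters, and the differences varied within each. By RefSeq gene order, runs of at least 3 of the 57 genes with gaps of at most 500 kb gave 5 clusters. In the chromosome 11 run *Ccl5*, *Ccl9*, *Ccl6*, *Ccl3* and *Ccl4*, the difference went from 0.11 for *Ccl5* to -2.83 for *Ccl3*, a fitted value that includes arrays below background, with a median of -1.38. In the chromosome 11 run of *Ccl2*, *Ccl7*, *Ccl11*, *Ccl12*, *Ccl8* and *Ccl1* the median was -0.27, and in the chromosome 5 run of *Cxcl5*, *Cxcl3*, *Cxcl15*, *Cxcl1* and *Cxcl2* it was -0.16, with *Cxcl1* at -1.47 and its neighbour *Cxcl2*, not measured, at -0.16. In the receptor run of chromosome 9, *Cxcr6* was at -0.65 and its neighbour *Ccr9* at 0.18. The chromosome 8 run of *Ccl22*, *Cx3cl1* and *Ccl17* held no gene past the threshold.

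**Figure D3:**
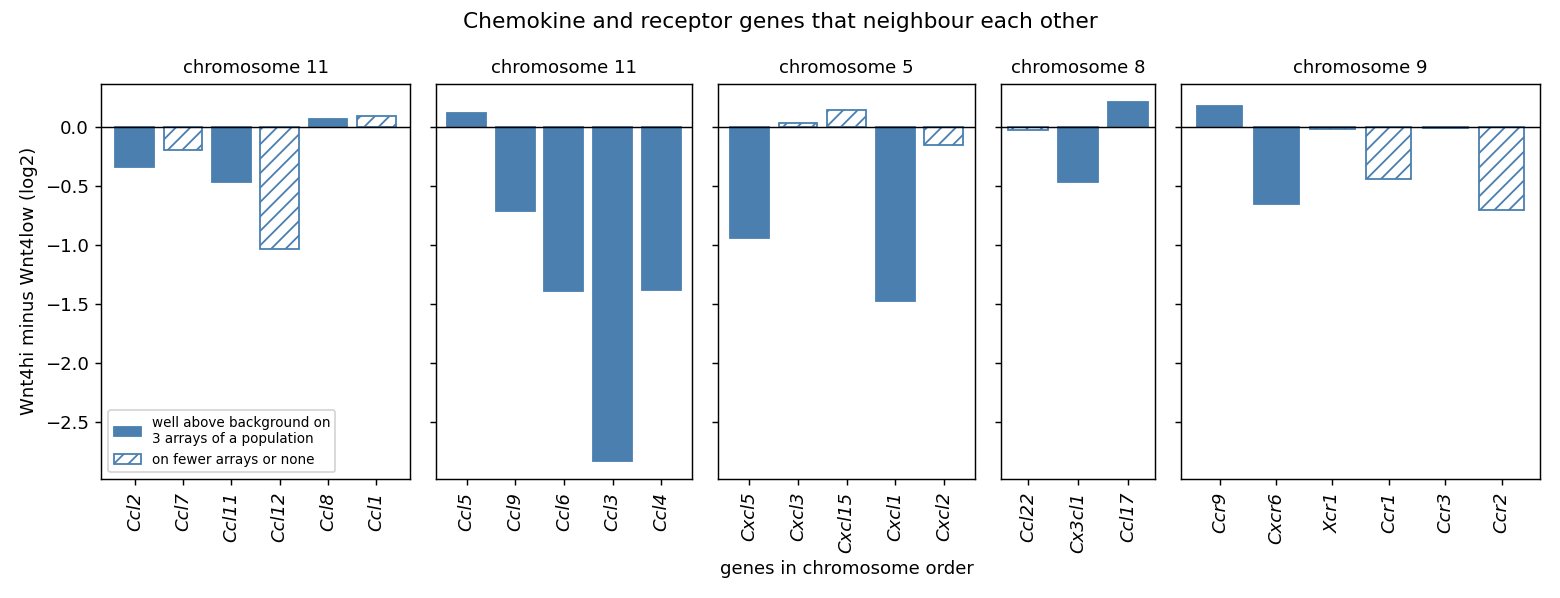
Difference, *Wnt4*hi minus *Wnt4*low on the log2 scale (y axis), of chemokine and receptor genes in the order in which they follow each other on a chromosome (x axis), 1 panel per cluster. Filled bars are measured genes and hatched bars are genes well above background on fewer arrays or none. Bars from *Ccl9* to *Ccl4* point down while their neighbour *Ccl5* is at 0.11.

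Other genes of the pathway were counted from lists written by hand. Of 57 genes of chemokine receptor signalling, 19 were lower in *Wnt4*hi cells and 3 higher at an unadjusted p under 0.05, with a median difference of -0.43. Of all features 5.53% were lower and 5.06% higher at that threshold, a background that applies to each list, and the 3 higher genes are close to it. The largest fitted differences were those of *Gnb4*, a G protein beta subunit (-2.37, SE 0.36), *Elmo1*, which links receptors to Rac (-2.24, SE 0.26, adjusted p = 0.0433, limma), *Plcb1*, a phospholipase C (-2.12, SE 0.50), *Gng11*, a G protein gamma subunit (-1.95, SE 0.25, adjusted p = 0.0487, limma) and *Arrb1*, a beta-arrestin (-1.73, SE 0.26). The values of *Gnb4* and *Elmo1* include 1 *Wnt4*hi array not well above background. Higher were *Grk3* (1.13, SE 0.37), a receptor kinase, *Gnai1* (0.99, SE 0.24), an inhibitory G protein, and *Ptk2b* (0.74, SE 0.21), a focal adhesion kinase; these 3 were named after their values were seen.

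Of 23 genes of heparan sulphate proteoglycans and the enzymes that make their chains, 8 were lower and 2 higher, with a median of -0.78. *Hspg2* (perlecan) differed by -2.61 (SE 0.36), *Gpc6* by -1.59 (SE 0.51), *Agrn* (agrin) by -1.30 (SE 0.28) and *Gpc2* by -1.18 (SE 0.34), whereas the glypican *Gpc4* was higher by 1.29 (SE 0.43). Of 20 genes of leukocyte adhesion and transmigration, 8 were lower and 0 higher, with a median of -0.49. *Pecam1* (-3.04, SE 0.33, adjusted p = 0.0373, limma) and *Esam* (-2.50, SE 0.22, adjusted p = 0.0269, limma) led, and both are also in the endothelial marker list. *Icam2* differed by -2.34 (SE 0.78) and *Jam2*, above background on 2 *Wnt4*hi arrays, by -2.0 (SE 0.39), and *Icam1*, above background on no *Wnt4*hi array, had a bound of at least 1.64-fold lower (adjusted p = 0.0737, limma). The adhesion count fell to 5 without *Wnt4*hi replicate 3.

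Of 9 genes of the chemokine system outside the naming rule, 3 were lower and 1 higher. *Rarres2* (chemerin), a chemoattractant of dendritic cells and macrophages, differed by -2.02 (SE 0.25, adjusted p = 0.0439, limma), *Cd74*, a receptor of the cytokine MIF, by -1.73 (SE 0.24), and *Gpr182*, an endothelial scavenger of chemokines, by -1.53 (SE 0.22). *Dpp4*, a protease that trims CXCL12 and other chemokines, was higher in *Wnt4*hi cells by 1.02 (SE 0.39). In the same list *Cmklr1* differed by 0.42 (SE 0.21), with every *Wnt4*hi array above every *Wnt4*low array, and *Mif* by -0.19 (SE 0.19). Neither passed.

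**Figure D4:**
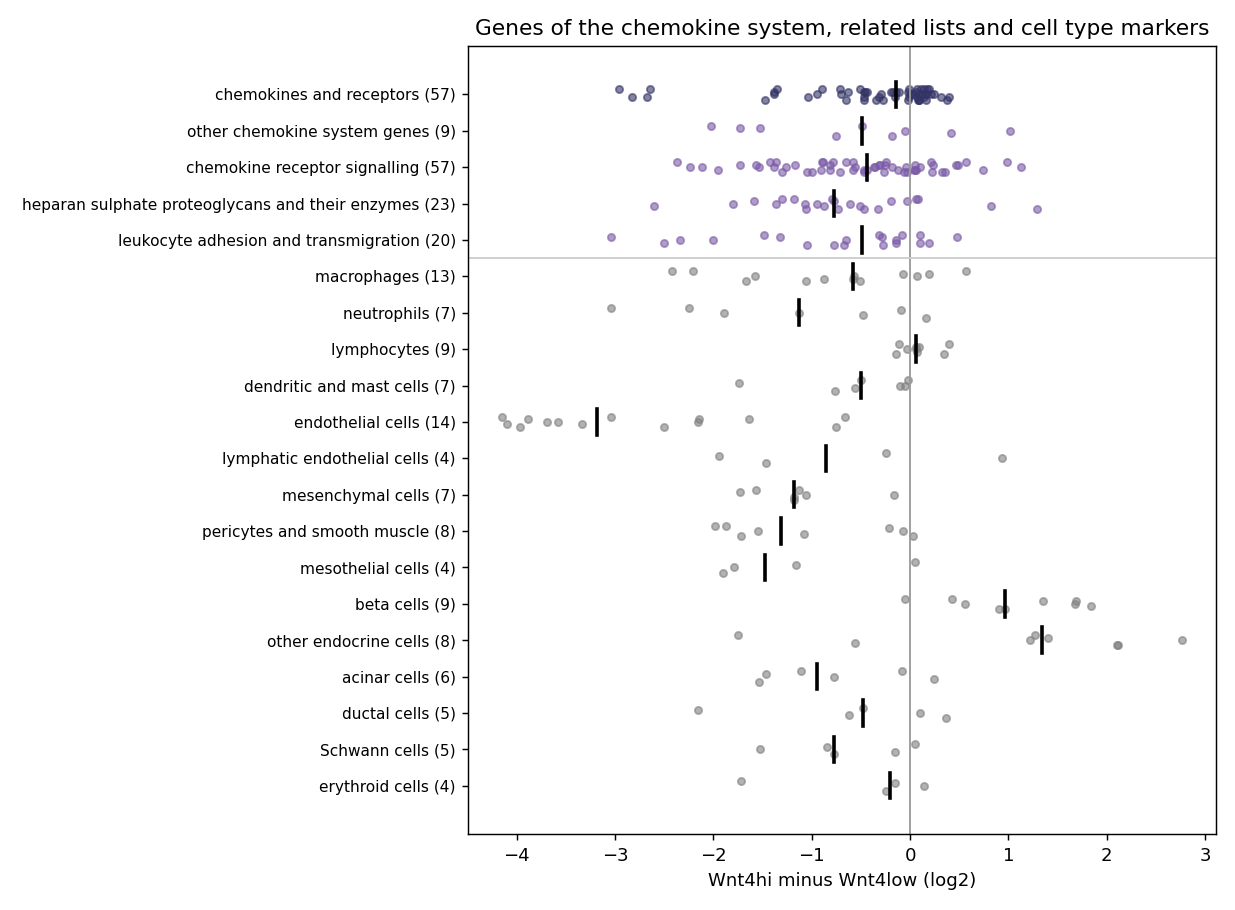
Difference of single genes, *Wnt4*hi minus *Wnt4*low on the log2 scale (x axis), for the chemokines and receptors, the related pathway lists and the cell type markers (y axis, number of genes in brackets), with the median of each list as a black bar. The endothelial markers have the lowest median at -3.19, the beta cell and other endocrine markers lie mostly above 0, and the lymphocyte markers lie around 0.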

How the data were processed

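The study hybridised amplified, Cy5-labelled cDNA of sorted P1 islet cells to 1-colour SurePrint G3 Mouse v2 arrays, with 3 arrays per population. Per array, the authors deposited scanner files with spot and local background intensity, of which the medians were used here, not normalized, and a table of normalized log2 values of the same arrays. The extraction software was Agilent Feature Extraction, version 12.0.1.1 in the file headers and 9.1 in the submitters' processing notes. The array design names the mouse build mm9, and the RefSeq table of GRCm38.p6 was used for names, gene order and the printed windows only. Of 56605 probes, 35886 carry a RefSeq accession, and 32994 of these matched a symbol.

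Following the study's methods, the background was subtracted by normexp (offset 50), quantile normalization was applied, and the populations were compared with limma (version 3.58.1, R 4.3.3) by lmFit and eBayes without covariates. Outlier spots (50 to 141 per array), which the methods do not mention, were left out before normalization. Benjamini-Hochberg adjustment ran over all 45616 features. The brightest probe stood for a gene. Measured members with an unadjusted p under 0.05 or with no overlap of arrays are given in full. Up to 5 genes per pathway list are named, the largest fitted differences past that threshold. Named after their values were seen were 3 signalling genes, and *Cmklr1* and *Mif*, which did not pass. The members and lists were chosen with earlier results of these data known. The calculation was tested on simulated data. Depth does not apply to arrays, and precision is set by how many arrays there are: an exact permutation test of 3 against 3 cannot give a two-sided p below 0.1. The sources do not say whether equal replicate numbers share a pool of pups, so p values measure the spread between these samples. The alternatives changed the background correction, normalization, probe filter, outlier spots, choice of probe, variance model, test, source of values and replicate block, or dropped single arrays. Values of 1 member are not reported here, and it is named in no figure; counts and medians include it.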

Additional observations from a re-analysis of the deposited data

How the results depend on the processing

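Under 19 alternatives the 10 genes given in full kept their direction in all 190 cases and their side of the unadjusted threshold in 177. These genes were chosen by p or by lack of overlap in the same data. Where the populations do not overlap, dropping an array or changing the variance model or the test cannot reverse a direction. *Ackr3*, *Ccl3*, *Cxcl12*, *Cxcr4*, *Cx3cr1*, *Cxcl1* and *Cxcl5* stayed past the unadjusted threshold in every alternative, *Ccl6* in 15 and *Cxcr6* in 11, and *Ccl2* passed in 1. The number of members lower in *Wnt4*hi cells at that threshold was 8 to 14 over all alternatives, which is also the range when 1 array was left out. The number higher was 0, or 1 with the processed signal scaled to the 75th percentile, and 0 to 1 when 1 array was left out. The number past the adjusted threshold was 2 as reported, 4 with only probes well above background, 0 with a plain two-sample t-test, which the study names for other assays, and 0 whichever array was left out; of all features 201, 509, 0 and 0 to 9 passed. The median of the measured genes was -0.39 to -0.066 when 1 array was left out, the last without *Wnt4*low replicate 1. With the plain t-test 5 heparan sulphate genes and 5 adhesion genes were lower, and with 1 array left out 5 to 8 adhesion genes were.

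Equal replicate numbers exist for 2 pairs of arrays, whose deviations from the population means correlated at -0.03 and 0.16, and they were not treated as paired; whether they share a pool of pups is not given in the sources used here. With that number as a fixed replicate block 0 members passed the adjusted threshold and 12 the unadjusted one. With a random replicate block 2 and 12 did. Of all features 0 and 257 passed the adjusted threshold. The fixed block takes its differences from the 2 pairs alone, since *Wnt4*hi replicate 2 and *Wnt4*low replicate 1 have no partner.

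The authors' log2 table held 53 of the 57 genes, with a median of 8.91 in each column and a centring not given in the sources used here. Its column for *Wnt4*hi replicate 2 correlated at 0.271 with the scanner array of that label and at 0.287 with that of *Wnt4*hi replicate 3, against 0.84 to 0.87 for the other columns with their own arrays, so which array it holds is not settled and the alternative that uses this table is less sure. With 3 arrays per population, small differences could not be told from the spread, and fitted differences of genes near background include readings not well above it.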
